A study of Mus musculus with 6 samples.

Results

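Splenic type 2 conventional dendritic cells (cDC2) that carry CD24 were compared, across all genes measured, with cDC2 that lack it. The comparison used 4 of the 6 Affymetrix arrays of the study. All cells came from wild-type mouse spleens and were sorted, with no treatment named and no age, sex or strain given. The arrays titled WT CD24+CD172a+ (n = 2) hold CD24+CD172a+ cDC2, and those titled WT CD172a+ (n = 2) hold the population that the design text describes as CD24-CD172a+ cDC2. The remaining arrays, titled WT CD24+ (n = 2), hold type 1 cells (cDC1) and entered the same fit, where they helped to estimate the spread and gave a reference level for each gene. RNA was amplified from very small inputs with a Pico kit, and separate animals or pools behind the arrays of a population are not stated in the labels. The p-values therefore measure the spread between these arrays, which may be technical.

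Conventional dendritic cells take up, process and present antigen to T cells. The cDC1 lineage specialises in dead-cell antigen and CD8 T cells, and the cDC2 lineage, marked by CD172a (the product of Sirpa, a receptor for CD47), mainly serves CD4 T cells and is a source of inflammatory cytokines. CD24 is a glycosylated surface protein anchored in the outer membrane that splenic cDC1 carry at high levels, and it is usually used to gate them. The spleen also holds plasmacytoid dendritic cells, monocytes and macrophages that share surface markers with cDC2.

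Values are deposited RMA intensities on the log2 scale, differences are CD24+CD172a+ minus CD24-CD172a+ cDC2 with their standard error, and a gene was called when its adjusted p from limma was under 0.05 over the 19938 genes tested. Median intensities of the 6 arrays lay between 29.5 and 30.6. Between the replicate arrays, differences had an SD over genes of 0.23 in the CD24-positive and 0.25 in the CD24-negative population. Between the population means, each an average of 2 arrays, they had an SD of 0.25. A difference beyond 1 was found for 87 genes between the populations, against 30 and 38 between replicates. The median difference was -0.07 over the 4985 genes at the low end of the level range and 0.07 over the 4985 at the high end, so small shifts of a gene group are read against these values. Levels below 3.93, the 25th percentile over genes, are termed dim here. Background was not examined, so the size of a difference with a dim side is less certain.

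CD24+CD172a+ cDC2 had more RNA of cell division genes, of Cd8a and Xcl1 and of several plasmacytoid dendritic cell genes than CD24-CD172a+ cDC2. They had less RNA of inflammatory cytokines and chemokines such as Il12b, Tnf and Ccl4, of lysozymes and complement C1q, and of the class Ib gene H2-M2. Among called genes with no dim side, the largest differences were 4.31-fold up (Cd8a) and 4.48-fold down (H2-M2). Of the genes tested, 291 were called (1.46%). These were 161 higher in CD24+CD172a+ cDC2 (0.808%) and 130 lower (0.652%), and 33 of the increases and 48 of the decreases reached 2-fold. Under cyclic loess, which removes the level-dependent bend, 126 were higher and 160 lower, and decreases then outnumbered increases. The arrays of the populations lay apart in each of the 291 called genes, as they did in 44.2% of all genes. The median difference was 0.80 over the called increases and -0.91 over the called decreases. The number of calls rested on each array. Dropping CD24+CD172a+ replicate 1 left 20 calls and dropping its replicate 2 left 44, of which 19 and 40 were among the 291. Dropping CD24-CD172a+ replicate 1 left 98 and dropping its replicate 2 left 76, of which 85 and 62 were. Dropping either cDC1 array, which adds only to the estimate of spread, left 187. Only 13 genes were called in each of the 4 fits without a compared array, namely Cd24a, Cd8a, Xcl1, Tet1 and Jchain among the increases and Ccl4, Ccl7, Cd81, H2-M2, Il12b, Lyz1, Pla2g7 and Tnfsf8 among the decreases. The differences themselves moved less than the calls. Over the 142 called genes that met the naming rule, a difference with an array left out was 0.68 to 1.32 times that with all arrays.

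**Figure D1:**
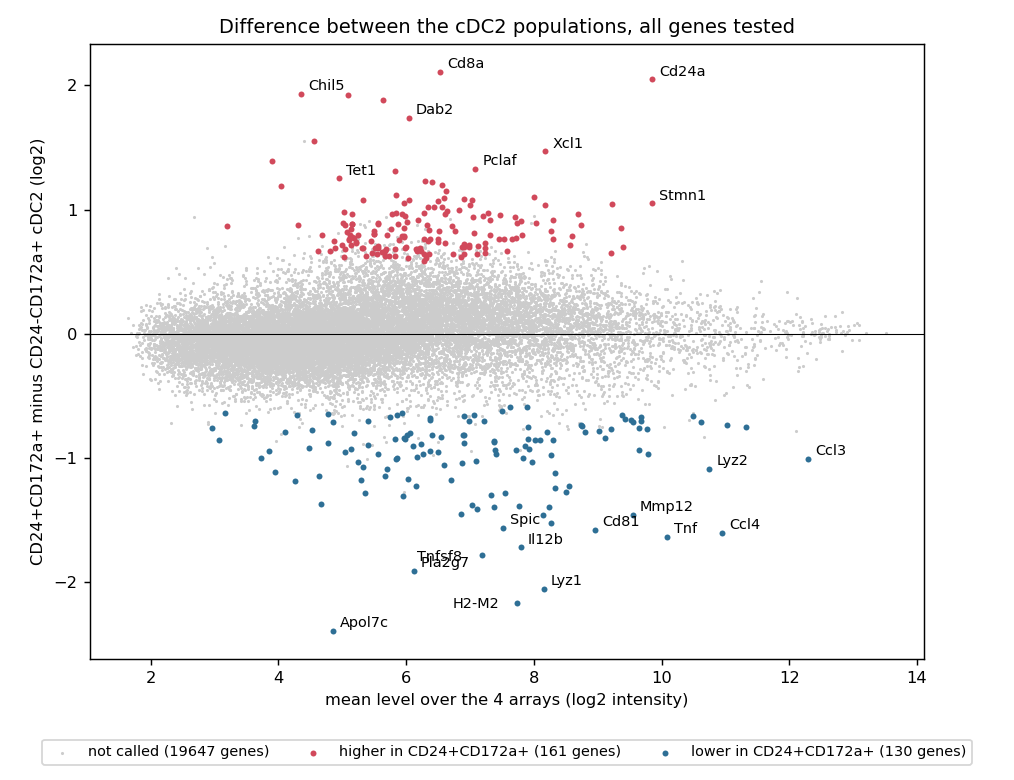
Each point is 1 of the 19938 genes, with its mean level over the 4 cDC2 arrays (log2 intensity) against the log2 difference between the populations. Red marks the 161 genes called higher and blue the 130 called lower in CD24+CD172a+ cDC2, and the cloud of other genes bends from slightly below 0 at low levels to slightly above 0 at high levels.

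The sort markers matched the labels. Cd24a read 10.94 and 10.82 on the CD24+CD172a+ arrays, 8.68 and 8.97 on the CD24-CD172a+ arrays and 11.83 and 11.66 on the cDC1 arrays, without overlap. Since CD24 was the gate, this difference of 2.05 ± 0.15 (adjusted p = 0.000454) checks the sort and is not a separate finding. Sirpa read 10.01 and 10.27 against 10.18 and 10.20, and only 4.97 and 5.39 in cDC1, so the cDC2 arrays overlapped and stood far above cDC1. Of 29 cDC2 markers, none was called between the cDC2 populations (limma, 0 of 29, with 7 at an unadjusted p under 0.05 and 1 called lower under cyclic loess or with the replicate block), while 24 and 26 exceeded cDC1 with a call in the CD24-positive and CD24-negative population. Of all genes, 7.11% and 6.83% were called higher in those comparisons, which share the cDC1 arrays. Markers of cDC1 stayed low in both populations, with 25 and 24 of 29 called lower than in cDC1, where 6.52% and 8.91% of all genes were. Xcr1, Clec9a and Tlr3 belong to that list, and its summed intensity lay between 5826 and 7016 on the cDC2 arrays and between 27219 and 28862 on the cDC1 arrays.

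**Figure D2:**
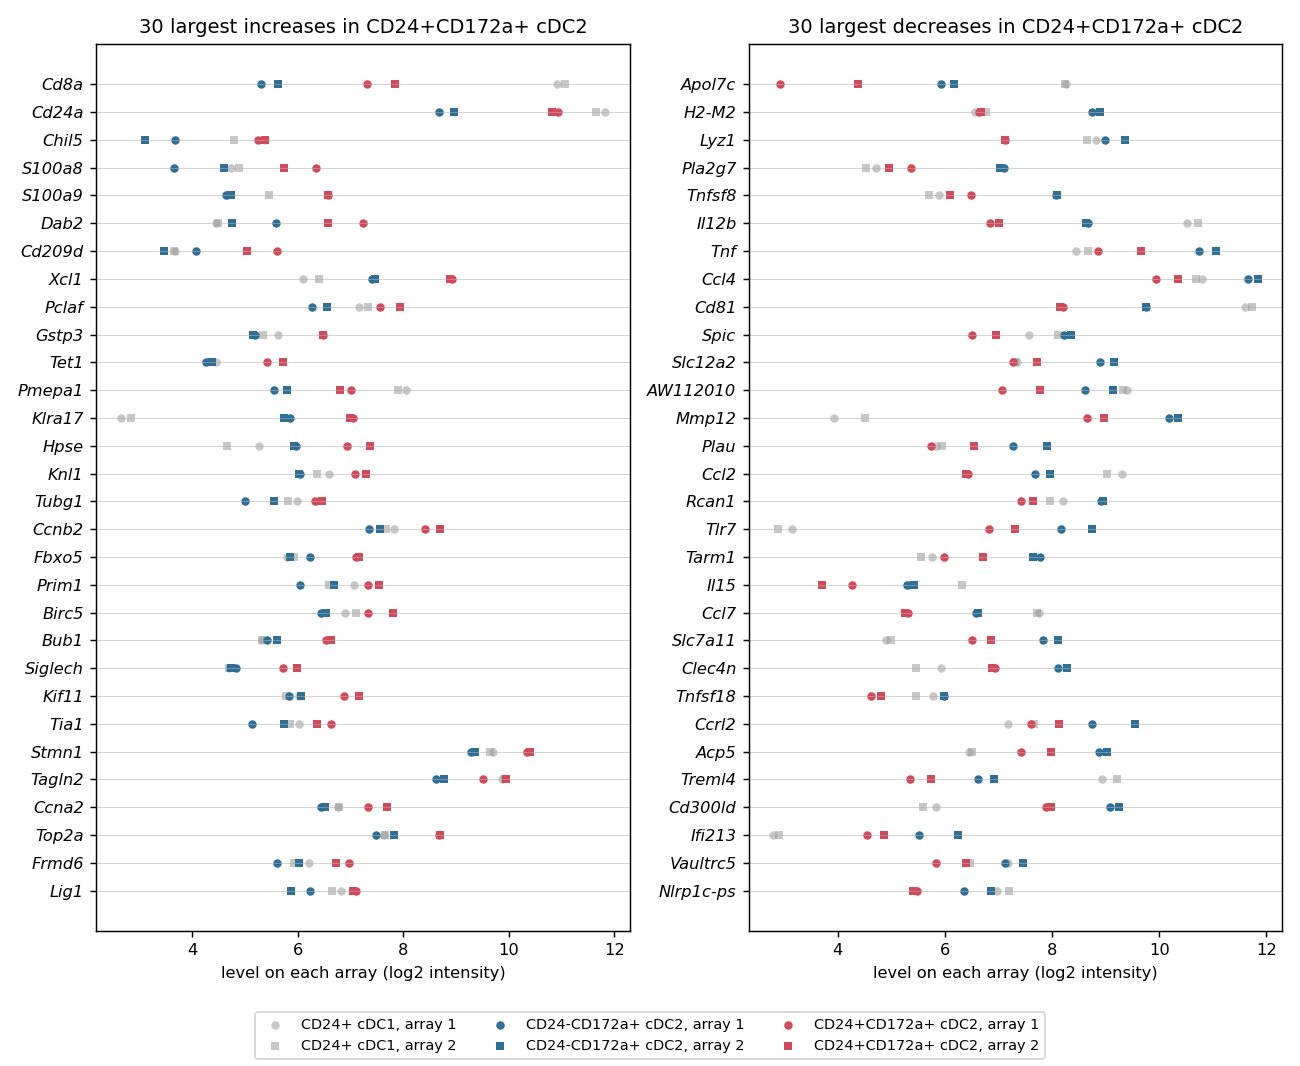
Levels on each of the 6 arrays (log2 intensity) for the 30 largest called increases (left) and the 30 largest called decreases (right) that met the naming rule. Red is CD24+CD172a+ cDC2, blue CD24-CD172a+ cDC2 and grey cDC1, with circles for replicate 1 and squares for replicate 2; red and blue do not overlap in any row, while grey falls on either side.

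The largest increase was in a surface molecule that is itself a cDC1 marker. Cd8a, the CD8 alpha chain, read 7.31 and 7.84 in CD24+CD172a+ cDC2, against 5.31 and 5.63 in CD24-CD172a+ cDC2 and 10.92 and 11.07 in cDC1. It was thus 4.31-fold higher in the CD24-positive cDC2 (2.11 ± 0.19, adjusted p = 0.000924) and still far below cDC1. No other of the 29 cDC1 markers rose. Instead 4 of them fell, which is 13.8% of the list against 0.652% of all genes: Cd36, a scavenger receptor (-1.03 ± 0.13), Cadm1, an adhesion molecule (-0.84 ± 0.17), Ly75, the endocytic receptor DEC-205 (-0.80 ± 0.16), and Id2 (-0.66 ± 0.14). Cd36 read 4.60 and 4.84 against 5.76 and 5.76, and 10.34 and 10.38 in cDC1, so its level was farther from cDC1 in the CD24-positive cDC2 than in the CD24-negative ones. The list's median difference was -0.01, equal to that of all genes at 2 decimals. Of the 4, Cd36 kept its call in 3 of the 4 fits with an array left out, all but that without CD24+CD172a+ replicate 1, and the other 3 kept it in none.

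Xcl1 and Klrk1, which are known best from lymphocytes, rose as well, and so did Klra17. Xcl1, the chemokine that attracts cDC1 through XCR1, read 8.93 and 8.90 in CD24+CD172a+ cDC2, against 7.41 and 7.47 in CD24-CD172a+ cDC2 and 6.10 and 6.41 in cDC1. It rose by 1.47 ± 0.14 (adjusted p = 0.00164) and was the single one of 34 chemokine ligands to rise. Klra17, an inhibitory lectin-like receptor of the Ly49 family, read 7.06 and 6.99 against 5.85 and 5.74, and 2.65 and 2.84 in cDC1, where it was dim. It is found on plasmacytoid dendritic cells among others, and it rose by 1.22 ± 0.13 (adjusted p = 0.00319). Klrk1, the activating receptor NKG2D, read 8.26 and 8.25 against 7.42 and 7.27 (0.91 ± 0.13, adjusted p = 0.00973). The family of 23 killer lectin-like receptor genes moved in both directions, with Klra5 (-1.0 ± 0.18, dim in CD24+CD172a+ cDC2) and Klrb1f (-0.66 ± 0.13) lower. Members of this family resemble each other in sequence, and cross-hybridisation between them was not tested. Klra17 kept its call in 3 of 4 fits with an array left out, Klrk1 in 1 and the 2 decreases in none.

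Other surface and endocytic genes were higher in CD24+CD172a+ cDC2. Dab2, an adaptor of clathrin-mediated endocytosis, read 7.24 and 6.58 against 5.59 and 4.76, and 4.46 and 4.49 in cDC1 (1.74 ± 0.26, adjusted p = 0.013). Its replicates lay far apart in both cDC2 populations, and a dimmer probe set of the gene gave 0.17 and was not called. With the mean of both probe sets the call was lost (0.95, adjusted p = 0.0589). Itgb3, an integrin beta chain, rose by 0.79 ± 0.16 while the alpha chains Itgav and Itga9 fell by 0.87 ± 0.14 and 0.70 ± 0.13, and the other 28 of 31 integrin chains were not called. Plxnb2, a semaphorin receptor, and Sema3f, a secreted semaphorin, rose by 0.77 ± 0.12 and 0.64 ± 0.13 and were the 2 called of 31 semaphorins and plexins. Pmepa1, an inhibitor of TGF-beta signalling, read 7.0 and 6.81 against 5.56 and 5.79 and stood still higher in cDC1, at 8.06 and 7.90 (1.23 ± 0.14, adjusted p = 0.00415). Among enzymes, Hpse, which cleaves heparan sulphate, rose by 1.20 ± 0.20, Gstp3, a glutathione S-transferase, by 1.31 ± 0.14, and Cyp7b1, an oxysterol hydroxylase that was dim in CD24-CD172a+ cDC2, by 1.19 ± 0.13. Gstp3, Pmepa1 and Cyp7b1 kept the call in 3 of 4 fits with an array left out, Dab2 in 2, Itgb3 and Itgav in 1, and Hpse, Itga9, Plxnb2 and Sema3f in none.

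A few antimicrobial genes rose although others fell. S100a9 and S100a8, which together form calprotectin, read 6.57 and 6.58 against 4.64 and 4.74, and 6.35 and 5.75 against 3.65 and 4.61. Chil5, a chitinase-like gene, read 5.26 and 5.38 against 3.68 and 3.10, dim in CD24-CD172a+ cDC2, and was at 5.38 and 4.79 in cDC1. All 3 lost their call without CD24+CD172a+ replicate 1 or without CD24+CD172a+ replicate 2. S100a8 and S100a9 are also neutrophil markers, of which the other 15 of 17 were not called. Of the 17 markers 4 were dim in both cDC2 populations, namely Ly6g, Cxcr2, Mmp8 and Padi4, and the others were not. The list's summed intensity lay between 4937 and 4944 in CD24+CD172a+ and between 4841 and 5531 in CD24-CD172a+ cDC2. Jchain, the joining chain of polymeric antibodies, read 4.51 and 4.68 against 3.25 and 3.15, which was dim (1.39 ± 0.15, adjusted p = 0.0028). It was the single called gene of 7 plasma cell markers, whose summed intensity was lower in CD24+CD172a+ (363 to 378) than in CD24-CD172a+ cDC2 (409 to 455).

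Several genes of plasmacytoid dendritic cells were higher in the CD24-positive cDC2. Of 25 measured markers 5 rose (20% against 0.808% of all genes), 1 fell and 19 were not called. Siglech, a sialic acid-binding receptor, read 5.73 and 5.99 against 4.83 and 4.74, and 4.71 and 4.70 in cDC1. Cd209d, a DC-SIGN-related lectin, read 5.62 and 5.04 against 4.08 and 3.48, which was dim. In the CD24-negative population both genes thus stood near the cDC1 level, and in the CD24-positive population above it. Tcf4, the E protein that directs the plasmacytoid fate, and Spib, an Ets factor that acts with it, read 7.83 and 7.71 against 6.79 and 6.93, and 6.76 and 6.80 against 6.07 and 5.83. Atp1b1, a sodium pump subunit, completed the 5 (0.88 ± 0.13). The marker that fell was Tlr7, an endosomal receptor for single-stranded RNA, which read 6.82 and 7.31 against 8.16 and 8.74 and was dim in cDC1, at 3.15 and 2.88. It fell by 1.39 ± 0.21 (adjusted p = 0.0141) and was the single Toll-like receptor called of 10. The list's median difference was 0.08, and its summed intensity overlapped, at 5285 to 5405 in CD24+CD172a+ and 5052 to 5442 in CD24-CD172a+ cDC2. In bulk RNA, a change in the share of cells of a type and a change in RNA per cell cannot be told apart. With 1 array left out, 1, 1, 2 and 3 of the markers were called higher, in the order CD24+CD172a+ replicate 1, CD24+CD172a+ replicate 2, CD24-CD172a+ replicate 1 and CD24-CD172a+ replicate 2. The same order is used for all such counts that follow.

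The broadest group that rose was the machinery of cell division. Dividing cells license and copy DNA with the MCM helicase, primase and polymerases, and then condense and part their chromosomes with condensin, the spindle motors and the checkpoint kinases. Of 83 measured mitosis and spindle genes, 20 rose (24.1% against 0.808% of all genes), none fell and 63 were not called. Of 49 DNA replication genes, 9 rose (18.4%), none fell and 40 were not called. The median differences were 0.49 and 0.33, against -0.01 over all genes, and 80 of 83 and 47 of 49 values were above 0. At an unadjusted p under 0.05, 59 and 27 genes were higher and 0 lower, beside 2799 of all 19938 genes in either direction. Under cyclic loess the medians were 0.48 and 0.28, with 22 and 8 genes called higher. The arrays of the populations lay apart, with CD24+CD172a+ higher, in 61 of the 83 and 43 of the 49 genes, against 21.4% of all genes. The count of calls rested on each array, with 3, 1, 5 and 11 mitosis genes and 0, 0, 6 and 2 replication genes called higher when the compared arrays were left out in turn.

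**Figure D3:**
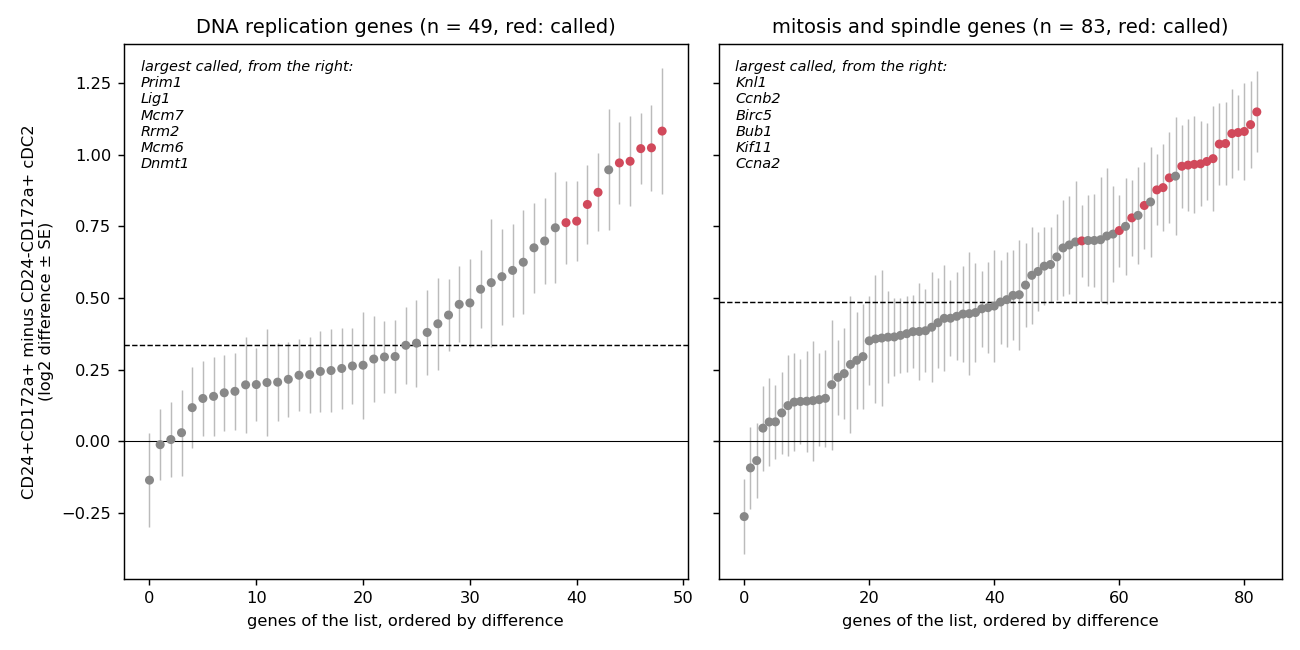
Log2 difference between the cDC2 populations, with its standard error, for the 49 DNA replication genes (left) and the 83 mitosis and spindle genes (right), ordered by difference. Red points are called genes, the solid line is 0 and the dashed lines are the list medians, 0.33 and 0.49; nearly all points lie above 0.

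Replication genes were represented at each step. Mcm7, a subunit of the replicative helicase, read 6.94 and 6.96 against 5.94 and 5.92, and 6.18 and 6.24 in cDC1 (1.02 ± 0.12, adjusted p = 0.0049). Its partners Mcm6 and Mcm2 rose by 0.97 ± 0.14 and 0.76 ± 0.15. Prim1, the primase that starts each strand, read 7.34 and 7.55 against 6.04 and 6.68, with the replicates of the CD24-negative population far apart (1.08 ± 0.22, adjusted p = 0.0439). Lig1, which joins Okazaki fragments, rose by 1.02 ± 0.15, Rrm2, which supplies deoxynucleotides, by 0.98 ± 0.16, and Pole, the leading-strand polymerase, by 0.83 ± 0.14. Dnmt1, which copies DNA methylation to the new strand, rose by 0.87 ± 0.14, and Dtl, a ubiquitin ligase adaptor at replication forks, by 0.77 ± 0.14. Pclaf, a partner of the sliding clamp PCNA that was not on the list, gave the largest change of this kind, at 7.55 and 7.94 against 6.28 and 6.56 (1.33 ± 0.17, adjusted p = 0.00591). A dimmer probe set of Pclaf gave 0.99. Pclaf kept the call in 3 of 4 fits with an array left out, Mcm7 in 2, Prim1, Lig1, Rrm2 and Pole in 1, and Mcm6, Mcm2, Dnmt1 and Dtl in none.

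Mitotic genes spanned kinases, cyclins, motors and chromosome proteins. Bub1, a checkpoint kinase, read 6.54 and 6.64 against 5.42 and 5.60, and 5.33 and 5.33 in cDC1 (1.08 ± 0.13, adjusted p = 0.00495). Knl1, the kinetochore scaffold on which BUB1 docks, read 7.09 and 7.30 against 6.05 and 6.03 (1.15 ± 0.14, adjusted p = 0.00537). In both, the gap between the populations was wider than the gap between replicates. The cyclins Ccnb2 and Ccna2 rose by 1.10 ± 0.15 and 1.04 ± 0.15, and Birc5 and Cdca8, of the chromosomal passenger complex, by 1.08 ± 0.17 and 0.96 ± 0.16. The kinesin motors Kif11, Kif4, Kif15 and Kif14 rose by 1.07, 0.98, 0.88 and 0.82 and were the 4 called of 42 kinesins. Mki67, the proliferation antigen Ki-67, read 8.03 and 7.87 against 6.83 and 7.15, and 7.16 and 7.14 in cDC1. Top2a, the topoisomerase that untangles chromosomes, rose by 1.04 ± 0.14, but a dimmer probe set gave -0.18, and one of Kif14 gave -0.07. Averaging their probe sets ended both calls (Top2a 0.43, adjusted p = 0.265, and Kif14 0.38, adjusted p = 0.247). Smc2 and Ncapg of condensin, Ndc80 and Nusap1 of the spindle attachment, and Sgo2a, Stil, Melk and Shcbp1 rose by 0.70 to 0.99. Stmn1, a microtubule destabiliser that was not on the list, read 10.34 and 10.40 against 9.28 and 9.37 (1.05 ± 0.12, adjusted p = 0.00452), and a dimmer probe set gave 1.07. Bub1, Knl1 and Stmn1 kept the call in 2 of 4 fits with an array left out. The mitosis genes were called higher than in cDC1 in 36 of 83 cases for CD24+CD172a+ cDC2, and in 5, with 3 lower, for CD24-CD172a+ cDC2, with 7.11% and 6.83% of all genes called higher in these comparisons.

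Promoters of 3 of these genes are shown because many members of the lists moved the same way and their windows share short motifs. RefSeq windows (GRCm38.p6) of 300 bases, from 250 before to 50 after the first listed start, were searched on both strands for CCAAT, for TTTGAA (the core of the cell cycle element CHR) and for TTTCCCGC or TTTGGCGC (E2F-type). No one of these motifs contains another. A CCAAT was found in 69.7% of 66 mitosis and spindle windows and in 38.2% of the 15614 windows of genes tested, and TTTGAA in 68.2% and 15.2%. An E2F-type match was found in 33.3% of 42 DNA replication windows and in 2.32% of all. Over the 134 windows of genes called higher, the shares were 44.8% for CCAAT, 21.6% for TTTGAA and 7.46% for the E2F type. A match is a string of letters and does not show that a factor was bound. Shown are the parts upstream of the start for Ccnb2 (chr9:70421555-70421674, minus strand) and Top2a (chr11:99024190-99024429, minus strand), with CCAAT or its complement ATTGG in capitals, and for Mcm6 (chr1:128359706-128359835, minus strand), with the E2F-type match in capitals.
Ccnb2: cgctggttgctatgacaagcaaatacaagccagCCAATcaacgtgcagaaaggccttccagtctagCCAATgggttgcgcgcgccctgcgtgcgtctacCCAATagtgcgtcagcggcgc
Top2a: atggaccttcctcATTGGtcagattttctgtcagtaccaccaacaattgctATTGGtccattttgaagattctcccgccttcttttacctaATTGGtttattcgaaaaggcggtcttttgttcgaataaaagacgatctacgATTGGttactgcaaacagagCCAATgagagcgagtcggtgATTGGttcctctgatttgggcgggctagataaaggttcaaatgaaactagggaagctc
Mcm6: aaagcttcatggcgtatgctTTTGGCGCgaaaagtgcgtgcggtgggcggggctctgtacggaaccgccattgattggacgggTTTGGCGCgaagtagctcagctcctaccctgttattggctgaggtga

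Of 300 microRNA genes measured, 2 rose and none fell, a share of 0.667% that is no larger than the 0.808% of all genes. Both lie in the Mir17 cluster, a single transcript on chromosome 14 that carries 6 hairpins within 836 bases (chr14:115043671-115044506, plus strand, GRCm38.p6). MicroRNAs of this cluster are known to target inhibitors of cell division and genes that promote apoptosis. Mir18 read 8.17 and 8.03 in CD24+CD172a+ cDC2, against 7.34 and 7.33 in CD24-CD172a+ cDC2 and 6.93 and 6.55 in cDC1 (0.77 ± 0.15, adjusted p = 0.0396). Mir19b-1 read 5.81 and 5.89 against 5.24 and 5.08, and 4.61 and 4.67 in cDC1 (0.69 ± 0.13, adjusted p = 0.0336). In both, the 3 populations stood apart in the order CD24+CD172a+ cDC2, CD24-CD172a+ cDC2, cDC1. The rest of the cluster is named as their neighbours. Mir17 read 8.32 and 8.15 against 7.83 and 7.32 (0.66 ± 0.17, adjusted p = 0.112) and Mir20a 5.65 and 6.63 against 5.43 and 5.17 (0.84 ± 0.26, adjusted p = 0.165). Neither was called, although the arrays did not overlap. Mir19a was dim in all populations and differed by 0.06, and the host transcript Mir17hg differed by 0.15 ± 0.15 with overlapping arrays. Both calls were lost in each of the 4 fits with an array left out. These probe sets read the hairpin region of labelled RNA, so they measure no mature arm. The main mature arms from RefSeq are shown with the seed, bases 2 to 8, in capitals, since the seed defines which transcripts pair with them. Mir17 and Mir20a share 1 seed, the seed of Mir18 differs from it, and that of Mir19b-1 is unlike both.
mmu-miR-17-5p: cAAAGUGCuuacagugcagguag
mmu-miR-20a-5p: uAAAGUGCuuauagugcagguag
mmu-miR-18a-5p: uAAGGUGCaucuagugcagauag
mmu-miR-19b-3p: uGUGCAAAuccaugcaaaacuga

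**Figure D4:**
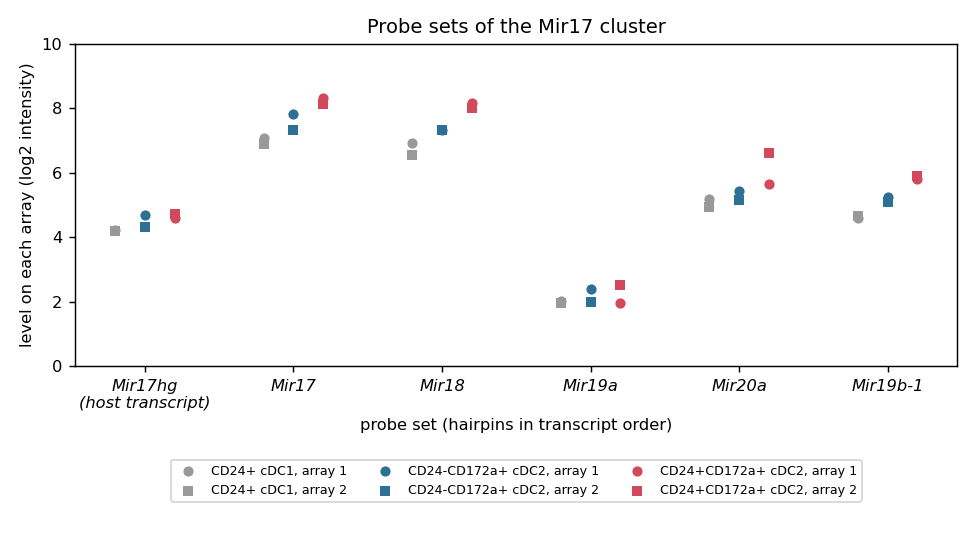
Levels on each array (log2 intensity) of the probe sets of the Mir17 host transcript and of 5 of its hairpins, in transcript order, for CD24+CD172a+ cDC2 (red), CD24-CD172a+ cDC2 (blue) and cDC1 (grey). Mir18 and Mir19b-1, the 2 called genes, separate the populations, Mir20a has 1 high array, and Mir19a is dim throughout.

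Among chromatin regulators, Tet1, which oxidises methylcytosine, read 5.42 and 5.73 in CD24+CD172a+ cDC2, against 4.27 and 4.37 in CD24-CD172a+ cDC2 and 4.45 and 4.36 in cDC1. The arrays of the CD24-negative cDC2 and of cDC1 lay together, and the CD24-positive arrays stood 1.25 ± 0.14 higher (adjusted p = 0.00354). Averaging the 3 probe sets of Tet1 gave 0.80. Of 61 transcription factors of dendritic cells and blood cells, 2 rose, 2 fell and 57 were not called. The shares were 3.28% in each direction, against 0.808% higher and 0.652% lower over all genes. Tcf4 and Spib were the increases. Spic, the Ets factor of red pulp macrophages, read 6.51 and 6.96 against 8.23 and 8.36, and 7.57 and 8.11 in cDC1 (-1.56 ± 0.20, adjusted p = 0.00678). Id2, which binds and blocks E proteins such as TCF4, read 10.23 and 10.10 against 10.72 and 10.94, and 11.43 and 11.51 in cDC1. The fate regulators Irf4, Irf8, Klf4, Batf3, Notch2 and Zeb2 were not called, with differences from -0.47 to 0.16, and neither was any of 29 Notch pathway genes (limma, 0 of 29, with 5 at an unadjusted p under 0.05).

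Several cytokine and chemokine genes were lower in CD24+CD172a+ cDC2. Of 61 genes induced by NF-kappaB in inflammation, 12 fell (19.7% against 0.652% of all genes), 2 rose and 47 were not called, with a median difference of -0.19. With 1 array left out, 4, 7, 9 and 6 fell. The increases were in Bcl3 (0.89 ± 0.17), a nuclear member of the inhibitor of kappaB family, and Tnip3 (1.0 ± 0.15), a partner of the ubiquitin-editing protein A20. The 12 decreases are cytokines, chemokines, a chemokine receptor and a transporter. A kappaB-type string, GGG and TTTCC with 2 bases of any kind between them, on either strand, was found in 16.7% of 42 promoter windows of this list, in 4.0% of the 100 windows of genes called lower and in 1.52% of all. Over the 134 windows of genes called higher its share was 2.24%.

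Some cytokine ligands were called lower, and none of the listed cytokine receptors was called. Il12b, the p40 chain of interleukins 12 and 23, read 6.85 and 7.01 in CD24+CD172a+ cDC2, against 8.66 and 8.64 in CD24-CD172a+ cDC2 and 10.52 and 10.72 in cDC1 (-1.72 ± 0.13, adjusted p = 0.000603). The 3 populations were in clear order, with the CD24-positive cDC2 lowest. Il15, which sustains NK and memory T cells, read 4.26 and 3.70 against 5.30 and 5.42, Il18 fell by 0.88 ± 0.15 and Il6 by 0.96 ± 0.18. Thus 4 of 36 interleukins fell (11.1% against 0.652% of all genes) and none rose. Of 15 ligands of the TNF superfamily 4 fell, or 26.7%. Tnf read 8.86 and 9.67 against 10.75 and 11.05, and 8.45 and 8.66 in cDC1 (-1.63 ± 0.23, adjusted p = 0.00973). Tnfsf8, the ligand of CD30, read 6.49 and 6.10 against 8.07 and 8.09 (-1.78 ± 0.15, adjusted p = 0.000872), and Tnfsf18, the ligand of GITR, read 4.62 and 4.80 against 5.99 and 5.99 (-1.28 ± 0.15, adjusted p = 0.00354). Lta, lymphotoxin alpha, fell by 0.64 ± 0.12. Of 37 interleukin receptors and 26 TNF receptors, limma called 0. As 1.46% of all genes were called, 0 in lists of this size says little. At an unadjusted p under 0.05 were 8 and 0 of these receptors, beside 8 of the 36 interleukins and 6 of the 15 TNF ligands. The interleukin ligands and receptors thus did not differ in that count. The fit with the replicate number as a block called 1 and 0 of the receptors, and cyclic loess 1 and 0. Il12b and Tnfsf8 kept the call in each of 4 fits with an array left out, Tnfsf18 in 3, Tnf in 2, and Il15, Il18, Il6 and Lta in none.

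Chemokines that recruit monocytes and T cells were lower. Ccl4 read 9.94 and 10.36 in CD24+CD172a+ cDC2, against 11.66 and 11.85 in CD24-CD172a+ cDC2 and 10.79 and 10.68 in cDC1 (-1.60 ± 0.16, adjusted p = 0.00232). Ccl3 read 11.66 and 11.91 against 12.74 and 12.85, and fell by 1.0 ± 0.15. Ccl2 and Ccl7, which attract monocytes, read 6.43 and 6.39 against 7.67 and 7.97, and 5.32 and 5.26 against 6.58 and 6.61. In cDC1 Ccl2 and Ccl7 were higher still, at 9.31 and 9.03 and at 7.75 and 7.72, whereas Ccl3 and Ccl4 in cDC1 were below CD24-CD172a+ cDC2. These 4 were the decreases among 34 chemokine ligands (11.8%). Of 23 chemokine receptors 1 fell, the decoy-like Ccrl2, at 7.61 and 8.14 against 8.74 and 9.55 (-1.27 ± 0.27, adjusted p = 0.049). Ccl4 and Ccl7 kept the call in each of 4 fits with an array left out, Ccl2 in 3, and Ccl3 and Ccrl2 in 1.

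**Figure D5:**
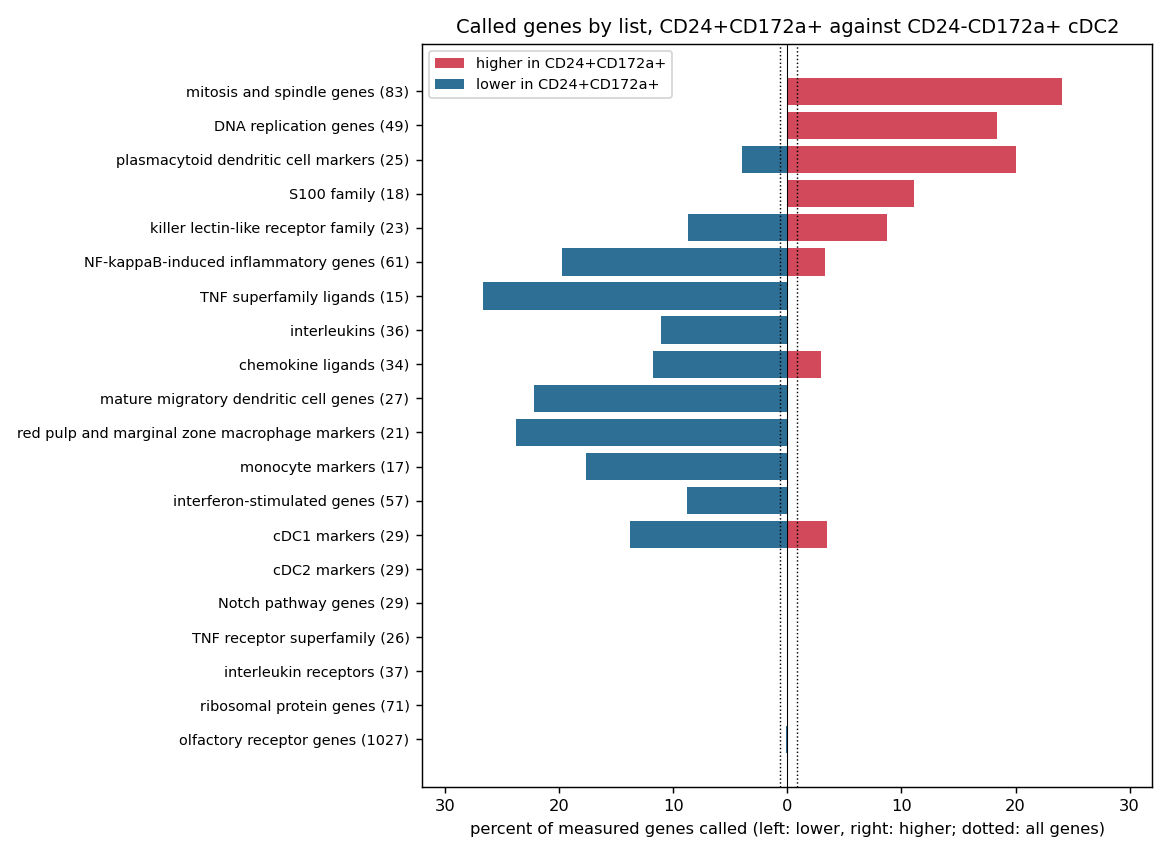
Percent of the measured genes of each list called higher (red, to the right) or lower (blue, to the left) in CD24+CD172a+ cDC2, with the number measured in brackets. Dotted lines mark the shares of all genes, 0.808% higher and 0.652% lower; mitosis, replication and plasmacytoid lists extend to the right, and cytokine, macrophage and maturation lists to the left.

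Genes of mature, migratory dendritic cells were also lower. Of 27 measured, 21 were not called and 6 fell (22.2%), with no increase and a median of -0.26. With each compared array left out in turn, 1 fell in every fit. Besides Il12b and Il15 they were Socs2, a brake on cytokine signalling (-1.0 ± 0.14), Nudt17, a nudix hydrolase (-0.99 ± 0.16), Cd63, a tetraspanin of late endosomes (-0.71 ± 0.14), and Cd274, the coinhibitory ligand PD-L1 (-0.67 ± 0.14). Cd274 read 9.36 and 9.33 against 9.92 and 10.09, and 7.93 and 8.18 in cDC1, so it was lower in the CD24-positive cDC2 without reaching the cDC1 level. Cd81, another tetraspanin, read 8.21 and 8.14 against 9.75 and 9.75, and 11.60 and 11.74 in cDC1 (-1.58 ± 0.13, adjusted p = 0.000603). Its replicates lay within 0.07 of each other in both cDC2 populations, and its call was kept in each of 4 fits with an array left out. Cd81 stands on a list of 15 genes of the ESAM-high subset of splenic cDC2, of which Cd8a rose, Cd81 fell and the other 13, Esam among them, were not called. Esam read 4.85 and 5.11 against 5.52 and 5.64 (-0.60), and was called lower with the replicate block (limma adjusted p = 0.0447). Of 13 genes of the ESAM-low subset, Lyz1 and Lyz2 fell (15.4% against 0.652% of all genes), 11 were not called and the median was -0.36. The stress-response genes Atf3 (-0.73 ± 0.15) and Ier3 (-0.75 ± 0.13) fell among 43 immediate-early and stress genes (median -0.23), and Rcan1, an inhibitor of calcineurin, read 7.43 and 7.65 against 8.92 and 8.95 (-1.40 ± 0.14, adjusted p = 0.00244). Rcan1 kept its call in 3 of 4 fits with an array left out, all but that without CD24+CD172a+ replicate 1, and Atf3 and Ier3 kept theirs in none.

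Lysozyme, complement and other macrophage-associated genes were lower in CD24+CD172a+ cDC2. Lyz1, lysozyme of Paneth cells and some myeloid cells, read 7.12 and 7.13 against 8.98 and 9.37, and 8.83 and 8.66 in cDC1 (-2.05 ± 0.15, adjusted p = 0.000489). Lyz2, lysozyme M, read 10.05 and 10.35 against 11.26 and 11.32, and 11.67 and 11.56 in cDC1. In both, CD24-CD172a+ cDC2 lay close to cDC1 and CD24+CD172a+ cDC2 lay below. The sequences of these neighbouring genes are alike, and how far their probe sets read each other was not tested. The C1q chains C1qa, C1qb and C1qc fell by 0.88 ± 0.14, 0.93 ± 0.18 and 0.82 ± 0.16. With Spic and Adgre1, the F4/80 antigen (7.75 and 7.79 against 8.65 and 9.13, -1.12 ± 0.16), they made 5 of 21 red pulp and marginal zone macrophage markers fallen (23.8%), with none risen. That list's median was -0.32, and 0, 1, 3 and 0 fell with 1 array left out. Of 17 monocyte markers Lyz2, Treml4 (-1.23 ± 0.17) and Fcgr4 (-0.67 ± 0.13) fell, with 0, 2, 2 and 0 left in the same fits. Of the 21 macrophage markers 5 were dim in both cDC2 populations, namely Cd163, Cd5l, Vsig4, Mertk and Gpnmb. The others, Spic and Adgre1 among them, were not. Summed intensity of the macrophage list ran from 2590 to 2919 in CD24+CD172a+, from 3489 to 3588 in CD24-CD172a+ cDC2 and from 2719 to 2829 in cDC1, and that of the monocyte list from 6350 to 7020, from 8616 to 9083 and from 7129 to 7209. The part of such cells in these decreases was not tested.

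Single genes of several enzyme families were lower. Of 75 matrix metalloproteinases and ADAM proteases 2 fell (2.67% against 0.652% of all genes), Mmp12 and Adamdec1, and 73 were not called. Mmp12, macrophage elastase, read 8.66 and 8.97 against 10.19 and 10.36, and 3.92 and 4.51 in cDC1 (-1.46 ± 0.19, adjusted p = 0.00833). Plau, urokinase, read 5.74 and 6.54 against 7.27 and 7.91, and Adamdec1, a decysin of mature dendritic cells and macrophages, fell by 0.77 ± 0.14. Acp5, tartrate-resistant acid phosphatase, read 7.42 and 7.99 against 8.87 and 9.03, and Ctsl, a lysosomal protease, fell by 0.66 ± 0.13 as the single called cathepsin of 21. Of 29 lipid mediator and phospholipase genes, Pla2g7 and Hpgds fell, Cyp7b1 rose and 26 were not called. Pla2g7, which degrades platelet-activating factor, read 5.37 and 4.95 against 7.10 and 7.03, and 4.72 and 4.53 in cDC1 (-1.91 ± 0.16, adjusted p = 0.00071). CD24+CD172a+ cDC2 were thus nearer to cDC1 in Pla2g7, as in H2-M2 and Tnfsf8, than to the other cDC2. Hpgds, the haematopoietic prostaglandin D synthase, fell by 0.85 ± 0.15. Fdft1, squalene synthase, fell by 0.81 ± 0.13 as the single called of 20 cholesterol synthesis genes, and its call was lost with the mean of its probe sets (-0.77, adjusted p = 0.0651). Pla2g7 kept its call in each of 4 fits with an array left out, Acp5 and Plau in 2, Mmp12 in 1, and Adamdec1, Ctsl, Hpgds and Fdft1 in none.

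Antigen presentation differed in single genes rather than across the pathway. H2-M2, a class Ib molecule, gave the largest decrease with no dim side, at 6.64 and 6.68 against 8.75 and 8.90, and 6.57 and 6.77 in cDC1. It was 4.48-fold lower (-2.16 ± 0.13, adjusted p = 0.000233), and its level overlapped that of cDC1. Nlrc5, the transactivator of class I genes, fell by 0.86 ± 0.15, while the other 19 of 21 class I genes were not called (median -0.04). With the mean of the 19 probe sets of Nlrc5 the call was lost (-0.55, adjusted p = 0.11). H2-Eb2, a class II beta chain, read 9.17 and 9.20 against 10.02 and 10.21 (-0.93 ± 0.13, adjusted p = 0.00973). It fell with 1 other of 16 class II genes, Ctsl, and the list's median was -0.01. H2-M2 kept its call in each of 4 fits with an array left out, H2-Eb2 in 1 and Nlrc5 in none. Apol7c, an apolipoprotein L gene, read 2.92 and 4.39 against 5.92 and 6.17, and 8.25 and 8.25 in cDC1, and fell by 2.39 ± 0.35 (adjusted p = 0.0105). The fall was 1.66 without CD24+CD172a+ replicate 1, the dimmer array, and the call was kept in 2 of 4 fits with an array left out.

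Single members of several receptor families were lower, where 0.652% of all genes were called lower and 0.808% higher. Of 55 C-type lectins, Clec4n and Ly75 (-0.80 ± 0.16) fell (3.64%), Cd209d rose (1.82%) and 52 were not called. Clec4n, which encodes the fungal receptor dectin-2, read 6.93 and 6.89 against 8.11 and 8.27 (-1.29 ± 0.16, adjusted p = 0.00678). Of 28 CD300 and paired immunoglobulin-like receptors 3 fell, Cd300ld (7.89 and 7.98 against 9.08 and 9.25, -1.23 ± 0.14), Treml4 and Cd300c2 (-0.77 ± 0.13), Siglech rose and 24 were not called. Tarm1, an activating receptor outside that family list, read 5.98 and 6.71 against 7.78 and 7.65 (-1.37 ± 0.21, adjusted p = 0.013). Of 122 G protein-coupled receptor genes, Adgre1, Adgrl3, Gpr4 and Lpar6 fell (3.28%), the last 3 by 0.93, 0.82 and 0.83. Gpr171 rose by 0.70, a share of 0.82% that is near that of all genes, and 117 were not called. Ms4a7 fell by 1.05 ± 0.14 among 19 MS4A genes. Cd300ld kept its call in 3 of 4 fits with an array left out, Treml4 in 2, Clec4n, Tarm1, Ms4a7 and Adgrl3 in 1, and Ly75, Cd300c2, Gpr4, Lpar6 and Gpr171 in none.

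Of 364 solute carriers, 5 fell and none rose, or 1.37% against 0.652% of all genes. Slc12a2, a sodium, potassium and chloride cotransporter, read 7.28 and 7.72 against 8.89 and 9.15 (-1.52 ± 0.17, adjusted p = 0.00321). Slc7a11, which exchanges glutamate for cystine, read 6.50 and 6.85 against 7.84 and 8.11, and 4.90 and 5.0 in cDC1 (-1.30 ± 0.16, adjusted p = 0.00495). Slc11a2, which carries iron out of the endosome, fell by 1.01 ± 0.12, Slc44a5 by 0.92 ± 0.15 and Slc6a12, a betaine carrier, by 0.70 ± 0.14. Without CD24+CD172a+ replicate 1, none of the 5 was called, and Slc12a2 and Slc7a11 were called in the other 3 fits.

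Sensors and effectors of the interferon response were lower in part. Of 57 interferon-stimulated genes, 52 were not called and 5 fell (8.77%), with no increase. The median was -0.23, and 0, 0, 5 and 0 fell with 1 array left out. Ifit3, an antiviral protein of the IFIT family, read 6.53 and 6.65 against 7.48 and 7.74, and 4.43 and 4.40 in cDC1 (-1.02 ± 0.14, adjusted p = 0.00833). Ifih1, the cytosolic sensor MDA5, read 7.51 and 7.40 against 8.33 and 8.64, close to cDC1 at 7.77 and 7.59. Rtp4 fell by 0.93 ± 0.13, Gbp4, a guanylate-binding protein, by 1.09 ± 0.20, and Oasl1 by 0.68 ± 0.14. Outside the list, Ifi213, a member of the interferon-inducible p200 family whose genes resemble each other, read 4.54 and 4.86 against 5.52 and 6.24. A core of the interferon-stimulated response element, a pair of GAAA with 2 bases of any kind between them, was found on either strand in 50% of 42 promoter windows of the list, in 10% of the 100 windows of genes called lower and in 3.32% of all. Over the 134 windows of genes called higher its share was 2.24%. The upstream part for Ifit3 (chr19:34583349-34583528, plus strand) is shown with its 2 matches, which lie on the opposite strand, in capitals.
Ifit3: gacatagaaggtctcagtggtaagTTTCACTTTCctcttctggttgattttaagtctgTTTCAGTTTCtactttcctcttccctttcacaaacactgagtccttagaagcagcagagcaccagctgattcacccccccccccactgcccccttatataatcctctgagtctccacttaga

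Markers of other cells gave few calls. As 1.46% of all genes were called, 0 calls in lists this short says little of such cells. Of 13 T cell, 8 erythroid, 7 megakaryocyte, 9 basophil and 15 stromal and endothelial markers, limma called 0 between the cDC2 populations, with 1, 0, 1, 1 and 1 at an unadjusted p under 0.05. The fit with a replicate block, and that without CD24-CD172a+ replicate 1, called 1 megakaryocyte marker, Clec1b, lower, at 5.34 and 5.14 against 5.78 and 6.44. The summed intensity of T cell markers was 457 to 465 in CD24+CD172a+, 439 to 487 in CD24-CD172a+ cDC2 and 471 to 477 in cDC1. Of the 13, 3 were dim in both cDC2 populations, namely Cd3g, Cd28 and Trat1. Of 15 B cell markers, Bank1, a signalling adaptor, fell at 6.03 and 6.03 against 6.78 and 7.18. Bach2 lay the other way, at 5.20 and 4.88 against 4.47 and 4.18. It was not called in the main limma fit (0.71, adjusted p = 0.0565) but was called higher under cyclic loess and with the replicate block. Only 2 of the 15, Cd79a and Ebf1, were dim in both populations, and the list summed to 587 to 611 against 645 to 692. Of 16 NK cell markers Klrk1 was called, and 6 were dim in both populations, namely Ncr1, Klrb1c, Klra8, Klrc1, Gzma and Gzmb. The summed intensity of the NK list lay the other way from Klrk1, at 6965 to 7096 in CD24+CD172a+ and 8176 to 9353 in CD24-CD172a+ cDC2. Much of that sum came from 1 member, Ccl5, a T cell chemokine that read 11.68 and 11.75 against 12.39 and 12.61. The sum therefore says little of the other NK markers, and the list's median difference was -0.02. Ccl5 was called lower with the replicate block (adjusted p = 0.033) or with only the 4 arrays (adjusted p = 0.0419). Housekeeping families gave no call, with 0 of 71 ribosomal protein, 89 respiratory chain, 40 proteasome, 70 Rab GTPase and 17 glycolysis genes called by limma, and median differences of 0.03, 0.10, 0.11, -0.06 and 0.16. At an unadjusted p under 0.05 were 4, 10, 7, 7 and 5 of them. Over all genes 1.46% were called, and 2799 of 19938 had an unadjusted p under 0.05. Olfactory receptors are not known to serve dendritic cells, and of their 1027 genes 2 were called (0.195%), Olfr521 higher and Olfr591 lower, both with a dim side.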

How the data were processed

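RNA from 3 sorted splenic dendritic cell populations was measured on 6 Affymetrix arrays. Per the submitters' processing notes, the authors used Affymetrix Expression Console with RMA, and versions and genome build are not given in the sources used here. The deposited intensity values are linear, as their range shows (array maxima from 11459 to 12095), and their log2 was taken. Scanner files, detection calls and scan dates were not used here, so background and batches were not examined. Precision is limited by having 2 arrays a group.

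Of 28853 probe sets, 21789 with a single gene symbol were used, and 1621 with several and 5443 without one were not. For 999 genes with several probe sets, the one with the highest mean was kept. Gene IDs of 21698 probe sets matched a RefSeq table of GRCm38.p6, with 0 symbols changed. All 6 arrays entered 1 fit of limma (version 3.58.1, under R 4.3.3; lmFit, then eBayes without a trend; 3 residual and 7.31 prior degrees of freedom) with Benjamini-Hochberg adjustment over 19938 genes. Checked on 10 simulations of this comparison with 200 of 19938 genes changed, the test found 6.27% of those changed by 0.5 (log2), 83% at 1 and 99.8% at 2, with 4.48% of calls false. The simulated noise was normal, independent between genes and drawn with the spread that limma fitted, so the model held by design. The level-dependent bend and any technical replication were not simulated. The 4.48% therefore checks the code and is not the false share of the real calls.

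Named were the sort markers, 8 regulators, the 30 largest increases and decreases among called genes whose arrays did not overlap and whose higher mean lay above the median gene (without predicted, clone, receptor segment, microRNA and snoRNA genes), and called members of the lists described. Lists, families, members and rule were chosen with earlier results of these data known, so they are no independent support. The alternatives were filters on dim genes, the mean of probe sets, every probe set, 3 other scalings, an intensity trend, array weights, only the 4 arrays compared, treat, a block for the replicate number, and each compared array left out. Plots used matplotlib 3.10.9 under Python 3.11.15.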

Additional observations from a re-analysis of the deposited data

How the results depend on the processing

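The 291 calls (161 higher, 130 lower) became 437 without genes below the median level (269 higher) and 464 with an intensity trend and robust variance (271 higher), 187 with only the 4 compared arrays (94 higher), 102 over every probe set and 8 against a 1.5-fold change (2 higher, 6 lower). Leaving out a cDC1 array gives the same fit as using only the 4 compared arrays. With 1 compared array left out the counts ran from 20 to 98, with 11 to 48 higher and 9 to 53 lower; the lone array is then assumed to vary like the other groups. Quantile normalisation, median centring, cyclic loess, array weights, a filter at the 25th percentile and the mean of probe sets gave 240 to 344 calls. With the replicate number as a block, 411 genes were called (231 higher, 180 lower), the 291 among them. The titles share only a number, the deviations of same-numbered cDC2 arrays correlated at 0.0838 over genes, and nothing else shows that the numbers pair the arrays.

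Over 15 alternatives, 1624 values of named genes kept direction and side of the threshold, 587 lost the call and 1 reversed. That was Sirpa, not called in any fit, which ran from -0.177 to 0.0769 with 1 compared array left out, the last without CD24+CD172a+ replicate 1 (adjusted p = 0.931). Fewer arrays give larger errors; for other lost calls the cause was not tested. With the mean of probe sets, Top2a, Kif14, Dab2, Nlrc5 and Fdft1 lost the call.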

Other observations

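Probe sets without a usable gene name were called less often than those with 1 gene symbol. When every probe set was tested together, limma called 102 of 28853. These were 94 of 21789 with 1 gene symbol (0.431%), 1 of 1621 with several symbols (0.0617%) and 7 of 5443 without a symbol (0.129%). Of the 7 without a symbol, 2 were higher and 5 lower in CD24+CD172a+ cDC2. Their genes are not named here. Vaultrc5, a small vault RNA, was among the largest named decreases, at 5.83 and 6.40 against 7.13 and 7.45 and at 7.18 and 6.47 in cDC1 (-1.17 ± 0.24, adjusted p = 0.0485). AW112010 read 7.07 and 7.77 against 8.62 and 9.13, and 9.41 and 9.33 in cDC1, so the CD24-positive cDC2 were farthest from cDC1. Nlrp1c-ps, a pseudogene of the inflammasome sensor family, read 5.48 and 5.40 against 6.35 and 6.87. Of 55 small nucleolar RNA genes limma called 0 between the cDC2 populations (16 at an unadjusted p under 0.05, and 2 called lower under cyclic loess), with 14 and 16 called higher than in cDC1 in CD24-CD172a+ and CD24+CD172a+ cDC2. Of all genes, 6.83% and 7.11% were called higher in those comparisons, which share the cDC1 arrays.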
